A study of Homo sapiens with 4 samples.

Results

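The genes described here are the subunits of the transcription factor NF-κB and the genes that switch it off again. They were 10 genes chosen by name, set beside the 22148 genes that the authors used as the background of their Gene Ontology (GO) tables. The members were the subunits NFKB1, NFKB2, REL, RELA and RELB, and the feedback inhibitors NFKBIA, NFKBIE, NFKBIZ, TNFAIP3 and BIRC3. After removal of ribosomal RNA, total RNA was sequenced from HepG2 and Huh7 cells, which are established human hepatocellular carcinoma cell lines, with 1 library in each of 4 groups. Group A was untreated HepG2 cells and group C was untreated Huh7 cells. Groups B and D were the same cell lines after sonodynamic therapy (SDT), in which low-frequency ultrasound acted on targeted nanobubbles that carried the sensitizer hematoporphyrin monomethyl ether (HMME) together with lonidamine (LND), an inhibitor of energy metabolism. No library of cells given ultrasound, nanobubbles or LND alone was analysed here, so the components of the treatment cannot be told apart.

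The readout was listing. A gene was listed when its Ensembl identifier stood under any GO term of the table for group B vs. A (HepG2 cells) or group D vs. C (Huh7 cells), which means that the authors had called its mRNA differentially expressed at an adjusted p-value under 0.05. The tables used here give no level in any library and no direction, so a listed gene may have risen or fallen. A gene that was not listed may have been unchanged, too weakly expressed or not tested, and these cannot be told apart. With 1 library per group there was no replicate error, and no difference between the cell lines was tested. The lists held 4783 genes in HepG2 and 4369 in Huh7 cells. The labelled cell type could not be checked by levels. Of 6 hepatocyte and hepatoma markers, 3 were listed in HepG2 cells (ALB, AFP and HNF4A) and 4 in Huh7 cells (the same genes and APOA1).

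NF-κB is a family of dimeric transcription factors that is held in the cytoplasm by inhibitors of the IκB type until a kinase complex marks the inhibitor for destruction. In the canonical route, receptors for tumour necrosis factor (TNF), interleukin 1 or bacterial products release dimers that contain RELA. In the non-canonical route, a smaller set of receptors, such as CD40, leads to processing of the NFKB2 precursor, and the product acts mainly with RELB. Many inhibitors are themselves targets of NF-κB, which closes a feedback loop. In liver cells the pathway is known for control of the acute phase response and of survival after TNF.

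In HepG2 cells 2 of the 10 genes were listed, RELB and NFKBIA. In Huh7 cells 2 of the 10 genes were also listed, RELB and NFKB2. Of all background genes, 21.6% were listed in HepG2 and 19.7% in Huh7 cells. The 20.0% of these genes in each cell line was therefore near the background, and the count by itself is no result about NF-κB. A single gene was listed in both cell lines, which is 1 of 10, against 10.3% of all background genes. The other 7 genes, NFKB1, REL, RELA, NFKBIE, NFKBIZ, TNFAIP3 and BIRC3, were listed in neither.

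**Figure D1:**
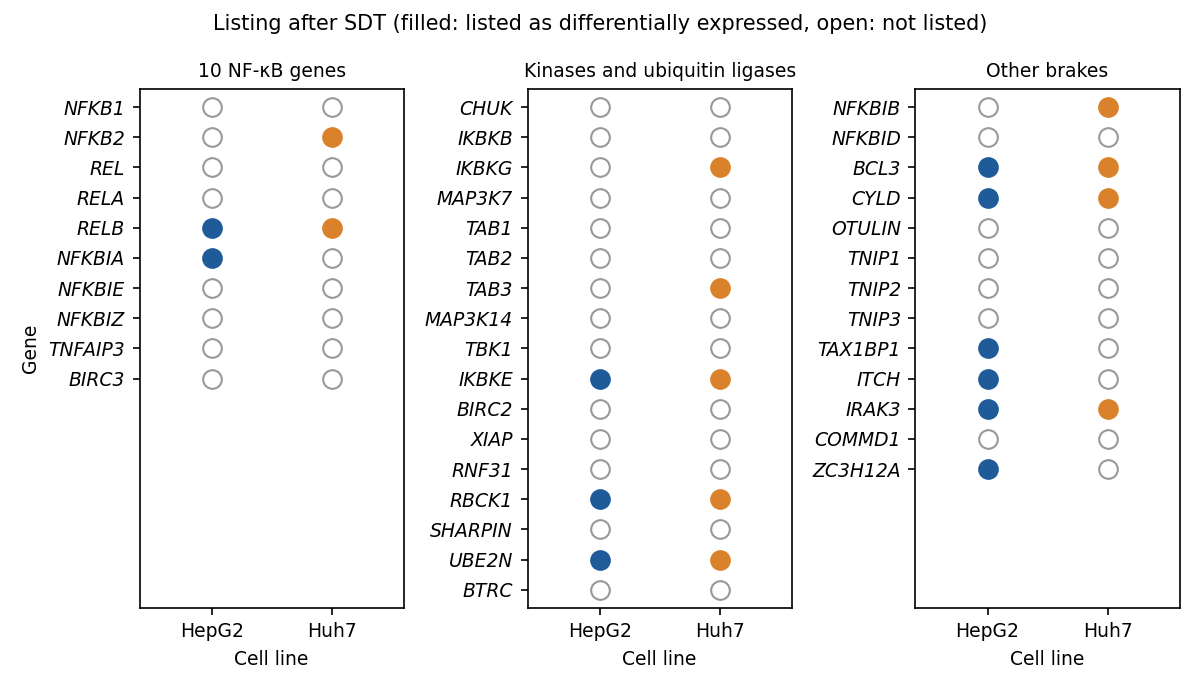
Listing of the 10 NF-κB genes, of 17 kinases and ubiquitin enzymes and of 13 other brakes of the pathway (vertical axis, gene) in each cell line (horizontal axis). A filled circle is a gene listed as differentially expressed after SDT and an open circle is a gene that was not listed. RELB is filled in both columns of the left panel, NFKB2 in Huh7 cells and NFKBIA in HepG2 cells.

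Among the 5 subunits, RELB (ENSG00000104856), the partner of the NFKB2 product, was listed in both cell lines. NFKB2 (ENSG00000077150), which encodes the precursor of the non-canonical route, was listed in Huh7 cells and not in HepG2 cells. Both partners of the non-canonical dimer were therefore listed in Huh7 cells, and RELB without NFKB2 in HepG2 cells. The subunits of the canonical route were listed in neither cell line. These are NFKB1 (ENSG00000109320), which encodes the other precursor, RELA (ENSG00000173039), the main activating subunit, and REL (ENSG00000162924), known best from lymphoid cells.

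Among the 5 inhibitors, NFKBIA (ENSG00000100906), which encodes IκBα and is the classical early feedback gene, was listed in HepG2 cells and not in Huh7 cells. None of the other inhibitors was listed in either. NFKBIE (ENSG00000146232) encodes IκBε, a further cytoplasmic inhibitor. NFKBIZ (ENSG00000144802) encodes a nuclear IκB protein that also assists transcription. TNFAIP3 (ENSG00000118503) encodes an enzyme that edits ubiquitin chains and dampens signalling. BIRC3 (ENSG00000023445) encodes a ubiquitin ligase that restrains the non-canonical kinase and protects from TNF-induced death. The longest annotated transcripts of the 10 genes ran from 1558 bases for NFKBIA to 11255 bases for REL, with a median of 3669.5 bases against 3157 bases over all protein-coding genes. The 3 listed genes measured 1558 (NFKBIA), 2294 (RELB) and 3416 (NFKB2) bases, so none of them was among the longest.

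NFKBIA and NFKB2 are the genes on which the cell lines differed, and the stretches of 250 bases before their outermost annotated starts are shown to set the listing beside the binding motif of NF-κB. They were taken from RefSeq (GRCh38.p14), which held 8 of the 10 genes. RELB, the gene listed in both cell lines, and NFKBIE had no entry and were not searched. The stretches are written 5′ to 3′ on the strand of the gene. Capitals mark a match to the κB decamer consensus, which was searched on both strands. The NFKBIA stretch is chr14:35404750-35404999 on the minus strand, and the NFKB2 stretch is chr10:102393860-102394109 on the plus strand.
NFKBIA: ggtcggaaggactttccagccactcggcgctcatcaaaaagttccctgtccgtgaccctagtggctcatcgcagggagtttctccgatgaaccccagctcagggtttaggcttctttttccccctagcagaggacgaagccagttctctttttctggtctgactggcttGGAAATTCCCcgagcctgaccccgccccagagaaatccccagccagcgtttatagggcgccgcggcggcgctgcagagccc
NFKB2: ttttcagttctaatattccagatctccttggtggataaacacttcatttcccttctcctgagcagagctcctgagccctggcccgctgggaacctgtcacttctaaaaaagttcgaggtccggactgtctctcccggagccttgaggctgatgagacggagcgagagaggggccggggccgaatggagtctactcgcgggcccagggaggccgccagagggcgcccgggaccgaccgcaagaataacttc

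The NFKBIA stretch held 1 match, GGAAATTCCC, at positions -81 to -72 counted from the start, and the NFKB2 stretch held 0. Of 27305 genes with a stretch of this length, 9.58% held at least 1 match. Of the 8 NF-κB genes in the table, 6 held a match. The unlisted genes were not without it, since 5 of the 6 unlisted genes in the table held at least 1. NFKB1 had GGGAATTTCC at -49 to -40, and REL had the pair GGGAAATTCC and GGAAATTCCC, which overlap on opposite strands. TNFAIP3 and BIRC3 each had 2 matches and NFKBIZ had 1, whereas RELA had 0. A match to the consensus is a description of these letters and not a binding site.

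**Figure D2:**
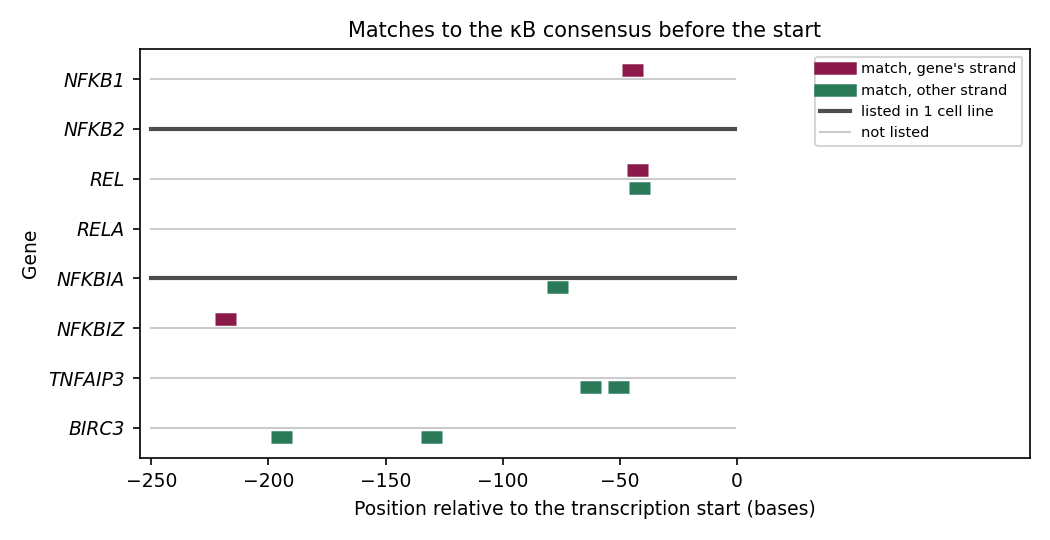
Matches to the κB consensus in the 250 bases before the outermost start of the 8 NF-κB genes with a RefSeq entry (horizontal axis, bases relative to the start; vertical axis, gene). Boxes are matches on the strand of the gene or on the other strand, and dark lines are genes listed in 1 cell line. NFKBIA has 1 box and NFKB2 none, and 5 of the 6 unlisted genes have at least 1.

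The 3 listed genes stood under many GO terms. NFKBIA was found under 349 terms in HepG2 cells, RELB under 245 terms in each cell line and NFKB2 under 175 terms in Huh7 cells. These numbers reflect how fully a gene is annotated and not the size of its change. RELB shared 141 terms with NFKB2, which is 57.6% of the terms of RELB and 80.6% of those of NFKB2. NFKBIA shared 148 terms with RELB and 127 with NFKB2. All 3 genes met under 116 terms, and the narrowest of these was the NIK/NF-kappaB cascade, the GO name for the non-canonical route.

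The narrowest terms showed which partners were listed beside each gene. The I-kappaB/NF-kappaB complex has 4 background genes, and 2 were listed in each cell line. These were BCL3 with NFKBIA in HepG2 cells and BCL3 with NFKB2 in Huh7 cells. BCL3 encodes a nuclear IκB protein that binds homodimers of the NFKB1 and NFKB2 products. Of the 2 background genes of the Bcl3/NF-kappaB2 complex, both were listed in Huh7 cells, and BCL3 alone in HepG2 cells. The term cytoplasmic sequestering of NF-kappaB has 7 background genes, of which NFKBIA was the 1 listed in HepG2 and 0 were listed in Huh7 cells. Without NFKBIA and NFKB2 the cell lines did not differ under these terms. The differences therefore restate the listing of NFKBIA and NFKB2 and add no further result. For germinal center formation, a lymphoid process that holds NFKB2, 4 of 15 genes were listed in HepG2 and 7, with NFKB2, in Huh7 cells. For T-helper 1 cell differentiation, which holds RELB, 7 and 5 of 17 genes were listed. The names of these terms come from lymphoid tissue, whereas the cells here are of liver origin.

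The remaining genes of the pathway were read from 103 genes grouped by role. Of these, 34 (33.0%) were listed in HepG2 and 38 (36.9%) in Huh7 cells, with 21 in both and 52 in neither. The shares over all background genes were 21.6% in HepG2, 19.7% in Huh7 cells and 10.3% in both. The lists were composed with earlier results of these data known, and no set test was run on them. The roles differed in their share, with the receptors and kinases listed more often in Huh7 cells and the adaptors and other brakes more often in HepG2 cells. These differences rest on few genes and were not tested.

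**Figure D3:**
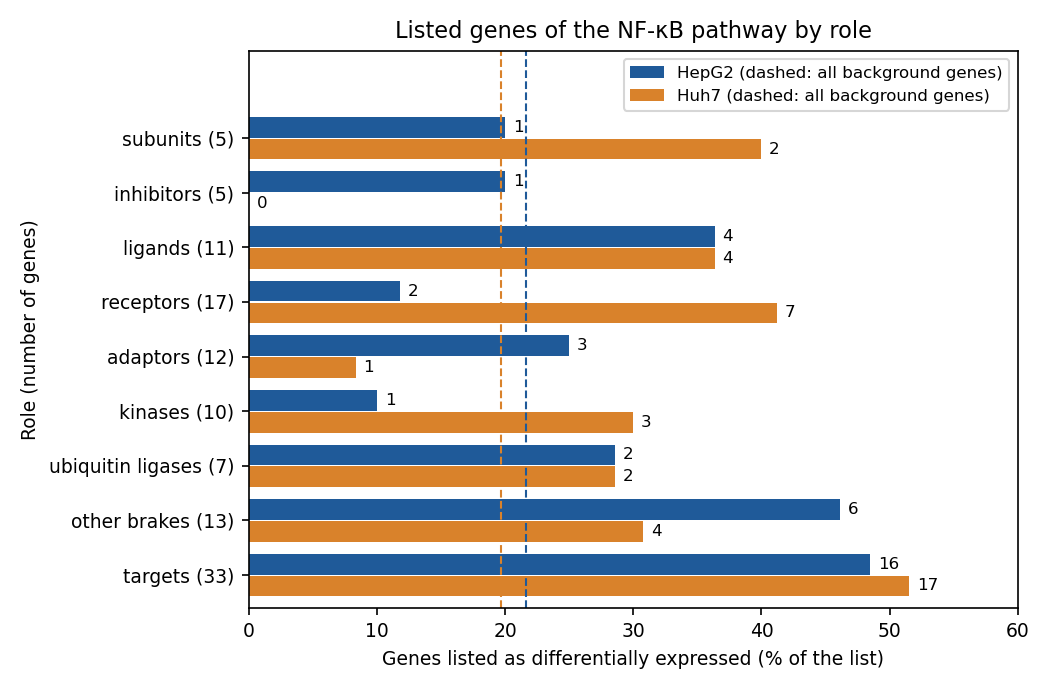
Share of genes listed as differentially expressed (horizontal axis, percent of the list) for each role in the NF-κB pathway (vertical axis, with the number of genes), in HepG2 and Huh7 cells. Numbers at the bars are listed genes and dashed lines are the shares over all background genes, 21.6% in HepG2 and 19.7% in Huh7 cells. The bars of the targets lie furthest to the right in each cell line, with 16 of 33 genes in HepG2 and 17 in Huh7 cells.

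Of 11 ligands that activate the pathway, 4 (36.4%) were listed in each cell line. The shares over all background genes were 21.6% in HepG2 and 19.7% in Huh7 cells. IL1A, which encodes interleukin 1 alpha, TNFSF12 (TWEAK) and TNFSF13B (BAFF) were listed in both. TNFSF11, which encodes RANK ligand, was listed in HepG2 but not in Huh7 cells, and LTB, which encodes lymphotoxin beta, in Huh7 but not in HepG2 cells. TNF itself and IL1B were in neither list. TNFSF12, TNFSF13B, TNFSF11 and LTB encode ligands known to engage the non-canonical route.

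Of 17 receptors, 2 (11.8%) were listed in HepG2 and 7 (41.2%) in Huh7 cells. The shares over all background genes were 21.6% and 19.7%. CD40, a receptor of both routes, was the 1 listed in both. TLR3, the sensor of double-stranded RNA, was added in HepG2 cells. In Huh7 cells the others were TLR4, TLR5 and TLR9, which sense lipopolysaccharide, flagellin and unmethylated DNA, the interleukin receptor chains IL1RAP and IL18R1, and TNFRSF11A, the receptor RANK. The ligand TNFSF11 and its receptor TNFRSF11A were thus listed in different cell lines. Of all background genes, 10.3% were listed in both, so many listed genes stand in a single list. The pairing describes the lists and was not tested. Neither TNF receptor, TNFRSF1A nor TNFRSF1B, was listed.

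Of 12 adaptors, 3 (25.0%) were listed in HepG2 and 1 (8.33%) in Huh7 cells, with 0 in common. All background genes gave 21.6% and 19.7%. Over all background genes, 10.3% were listed in both, so few of 12 genes would be shared at that rate. MYD88, the shared adaptor of Toll-like and interleukin 1 receptors, its partner kinase IRAK2 and TRAF2, an adaptor of TNF receptors, were listed in HepG2 cells. TICAM1, the adaptor of TLR3 and TLR4, was listed in Huh7 cells. TLR3 and TICAM1 were therefore in different lists, and TLR4 and TICAM1 in the same one. These pairings describe the lists and were not tested.

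Of 10 kinases and kinase subunits, 1 was listed in HepG2 and 3 in Huh7 cells. IKBKE, an IκB kinase relative known for interferon induction, was listed in both. IKBKG, the regulatory subunit of the IκB kinase complex, and TAB3, a partner of the upstream kinase MAP3K7, were listed in Huh7 but not in HepG2 cells. IKBKG has a near-identical pseudogene copy, and its call is uncertain because the counting may have split reads between them. The catalytic subunits CHUK and IKBKB, and MAP3K14, the kinase of the non-canonical route, were in neither list. Of 7 genes for ubiquitin enzymes, RBCK1, a subunit of the linear chain ligase, and UBE2N, a conjugating enzyme for the chains that recruit the kinases, were listed in both cell lines and the other 5 in neither.

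Of 13 brakes outside the 10 NF-κB genes, 6 (46.2%) were listed in HepG2 and 4 (30.8%) in Huh7 cells. BCL3, CYLD, a deubiquitinase that is a tumour suppressor, and IRAK3, an inhibitory kinase of the interleukin 1 route, were listed in both. In HepG2 cells TAX1BP1 and ITCH, which act with the TNFAIP3 protein, and ZC3H12A, an RNase that degrades inflammatory mRNAs, were added. In Huh7 cells NFKBIB was added, which encodes IκBβ. Each cell line thus listed a single cytoplasmic IκB gene, NFKBIA in HepG2 cells and NFKBIB in Huh7 cells, and NFKBIE was listed in neither. Among all background genes, 21.6% were listed in HepG2, 19.7% in Huh7 cells and 10.3% in both. With so few genes, this split is no result about the IκB genes.

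The established targets of NF-κB were the list with the largest share in each cell line. They numbered 16 of 33 genes (48.5%) in HepG2 and 17 (51.5%) in Huh7 cells. Of all background genes, 21.6% and 19.7% were listed, but the targets were chosen with earlier results of these data known. The 11 genes listed in both were the cytokines IL6 and LIF, the chemokines CXCL2, CXCL8 and CCL2, the adhesion molecules VCAM1 and SELE, the survival gene BCL2A1, the prostaglandin synthase PTGS2, the protease PLAU and the complement gene C3. SOD2, IER3, GADD45B, LCN2 and IRF1 were listed in HepG2 but not in Huh7 cells. SOD2 encodes the mitochondrial superoxide dismutase, and its call is uncertain because the annotation holds an overlapping locus of the same name. CXCL1, CXCL3, CXCL5, CXCL6, CXCL10 and CCL20 were listed in Huh7 but not in HepG2 cells, and all 6 encode chemokines. Of the 7 CXCL genes on the list, 2 were listed in HepG2 and 7 in Huh7 cells. CXCL1, CXCL2 and CXCL3 are close paralogs, so a call for 1 of them may include reads of the others. Of the 5 subunits, 1 (20.0%) was listed in HepG2 and 2 (40.0%) in Huh7 cells. No contrast between targets and subunits is drawn from these shares. Whether any target moved in the direction NF-κB would drive it cannot be read from the tables.

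GO terms named for NF-κB or IκB held more genes. There were 22 such terms, of which 13 had at least 10 background genes. The listed share exceeded that of all background genes in 10 of these 13 terms in HepG2 cells and in 9 in Huh7 cells. The wider term intracellular signal transduction was also above it, at 25.9% in HepG2 and 24.2% in Huh7 cells. An excess was therefore not particular to NF-κB. The 13 terms are nested and share genes, so they are not independent. Together 118 genes were listed under them for HepG2 and 112 for Huh7 cells. The 54 in common were 45.8% and 48.2% of these. Over all background genes, 2281 were listed in both cell lines, out of 4783 in HepG2 and 4369 in Huh7 cells. The overlap under these terms was therefore near that of all listed genes.

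The widest term, the I-kappaB kinase/NF-kappaB cascade, listed 75 of its 279 genes (26.9%) in HepG2 and 69 (24.7%) in Huh7 cells. Its regulation held 63 (26.5%) and 59 (24.8%) of 238 genes, and its positive regulation held 47 (25.1%) and 49 (26.2%) of 187 genes. Positive regulation of NF-kappaB transcription factor activity held 42 (23.7%) and 44 (24.9%) of 177 genes. These shares lay above 21.6% and 19.7%, but with protein-coding genes as the background (23.9% and 21.9%) the last of them was no longer higher in HepG2 cells. The NIK/NF-kappaB cascade, to which RELB, NFKB2 and NFKBIA belong, held 34 (24.3%) and 31 (22.1%) of 140 genes. Its regulation held 32 (26.4%) and 27 (22.3%) of 121 genes, and its positive regulation held 14 (21.2%) and 12 (18.2%) of 66 genes.

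Of the 3 terms for restraint of the pathway, 2 had a lower share in Huh7 cells and 1 an equal share. Such a lean was not particular to restraint. Of all 13 terms, 9 listed more genes in HepG2 cells, 3 more in Huh7 cells and 1 equal numbers. Negative regulation of NF-kappaB transcription factor activity held 20 of 96 genes (20.8%) in HepG2 and 15 (15.6%) in Huh7 cells. Negative regulation of the I-kappaB kinase/NF-kappaB cascade, a term chosen after its values had been seen, held 13 of 47 genes (27.7%) in HepG2 and 7 (14.9%) in Huh7 cells. There were 4 shared genes. NFKBIA and ZC3H12A were among the 9 genes listed in HepG2 but not in Huh7 cells, with SIRT1, OPTN and RORA. The 4 shared genes were MAPKBP1, NR1H4, OTUD7B and PER1. Negative regulation of the NIK/NF-kappaB cascade, likewise chosen afterwards, listed 7 of 29 genes (24.1%) for each cell line. NF-kappaB binding, also chosen afterwards, held 2 of 28 genes (7.14%) in HepG2 cells, NFKBIA and BCL10. In Huh7 cells it held 3 (10.7%), HDAC3, PPARD and TAF4B, with 0 in common. Among all background genes 10.3% were listed in both, so few of 28 genes would be shared at that rate. NF-kappaB binding had the lowest share of the 13 terms in each cell line, and without NFKBIA the HepG2 share was 3.70%.

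**Figure D4:**
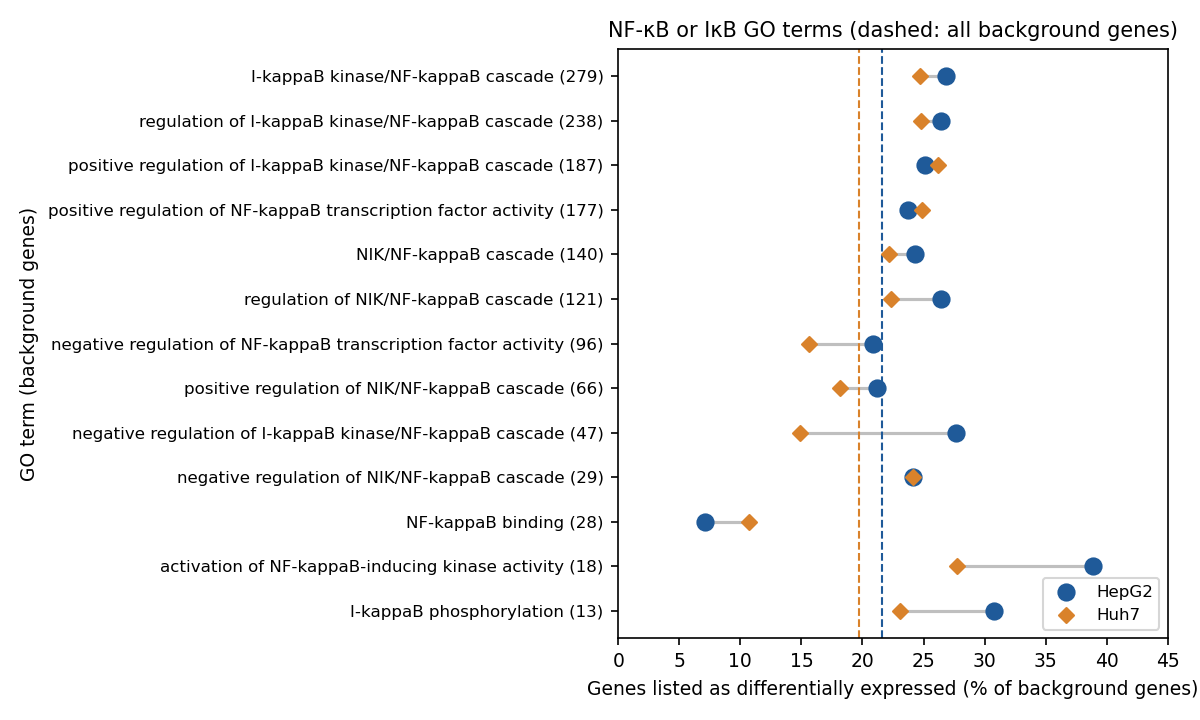
Share of background genes listed as differentially expressed (horizontal axis, percent) for the 13 GO terms named for NF-κB or IκB with at least 10 background genes (vertical axis, with that number), in HepG2 cells (circles) and Huh7 cells (diamonds). Dashed lines are the shares over all background genes. The cell lines lie furthest apart for negative regulation of the I-kappaB kinase/NF-kappaB cascade, at 27.7% and 14.9%, and NF-kappaB binding lies lowest in both.

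The NF-kappa B signaling pathway of KEGG has 91 background genes, of which 22 (24.2%) were listed in HepG2 and 26 (28.6%) in Huh7 cells. The 15 genes in common were 68.2% of the HepG2 genes and 57.7% of the Huh7 genes. RELB was among them, with CD14 and LY96, which help TLR4 to bind lipopolysaccharide, and with MALT1, BTK and LAT, which carry signals from antigen receptors. The 7 genes listed in HepG2 but not in Huh7 cells were NFKBIA, MYD88, TICAM2, TRAF2, BCL10, TNFSF11 and GADD45B. The 11 genes listed in Huh7 but not in HepG2 cells included NFKB2, IKBKG, TAB3, TLR4, TICAM1, LTB and TNFRSF11A. No share over all genes could be set beside the KEGG shares, so they are compared only between the cell lines.

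Across 13 KEGG pathways that use NF-κB, more genes were listed in HepG2 cells for 4, more in Huh7 cells for 6 and equal numbers for 3. These pathways were picked by name, with earlier results of these data known. Over all 32 pathways that hold NFKBIA, more genes were listed in HepG2 cells for 16, more in Huh7 cells for 12 and equal numbers for 4. The 8 pathways of NFKB2 split into 5, 1 and 2 in the same order, and the 5 of RELB into 2, 1 and 2. Every pathway of NFKBIA counts that gene for HepG2 cells only, and every pathway of NFKB2 counts NFKB2 for Huh7 cells only. These splits therefore depend in part on the gene by which the pathways were picked. NFKBIA was listed in HepG2 cells under all 13, with RELB under 4 of them. The TNF signaling pathway held 33 and 34 of 110 genes (30.0% and 30.9%) and shared 19, among them BCL3, IL6, LIF, FOS and JUN. The Toll-like receptor signaling pathway held 26 and 28 of 106 genes. The widest gap was that of Apoptosis, with 23 of 86 genes (26.7%) in HepG2 and 14 (16.3%) in Huh7 cells, 8 of them shared. Osteoclast differentiation, which depends on RANK, RELB and NFKB2, held 43 and 37 of 131 genes. The T cell receptor signaling pathway held 22 and 26 of 104 genes, and the B cell receptor signaling pathway held 24 of 72 in each. The NOD-like receptor signaling pathway held 11 and 13 of 57 genes. The lowest share in HepG2 cells was that of the Cytosolic DNA-sensing pathway, with 6 of 64 genes (9.38%) against 9 in Huh7 cells. The RIG-I-like receptor signaling pathway held 11 and 9 of 70 genes, and the Adipocytokine signaling pathway held 13 and 9 of 70. HTLV-I infection held 70 of 261 genes and Epstein-Barr virus infection 38 of 202 in each cell line, and 37 and 19 of these were common to both.

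**Figure D5:**
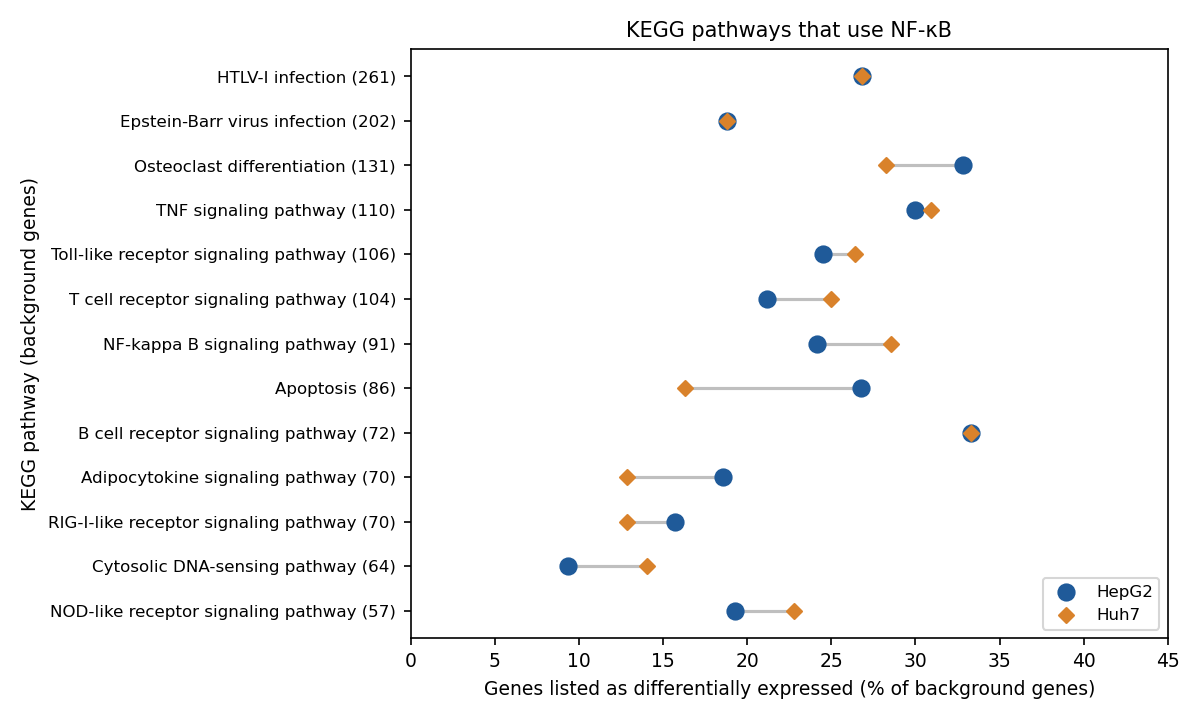
Share of background genes listed as differentially expressed (horizontal axis, percent) for 13 KEGG pathways that use NF-κB (vertical axis, with the number of background genes), in HepG2 cells (circles) and Huh7 cells (diamonds). The cell lines lie furthest apart for Apoptosis, at 26.7% and 16.3%, and coincide for B cell receptor signaling, HTLV-I infection and Epstein-Barr virus infection.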

How the data were processed

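HepG2 and Huh7 cells were compared before and after SDT, with 1 library in each group, as the labels give them. The authors removed low-quality reads, computed FPKM values and kept as differentially expressed those mRNAs whose adjusted p-value was under 0.05. The methods name Cuffdiff 2.1.1 for this step, whereas the results text names another tool. The submitters' processing notes also name Bowtie2 2.2.8, HISAT2 and StringTie 1.3.1. The genome build is not given in the sources used here. The authors deposited 4 tables of GO terms (GOseq) and KEGG pathways (KOBAS) with numbers of genes, gene identifiers and enrichment p-values. These p-values are the authors' own results and were not used. Read depth and expression levels were not analysed here.

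From the identifiers, the listed genes were collected in Python 3.11.15 with pandas 2.3.3, and no test was run. Parsing was tested on simulated data. Symbols were paired with identifiers by a table of gene names, in which all 10 NF-κB genes and all 103 other genes matched 1 identifier. That of SOD2 is newer than GENCODE release 29 and was replaced by the release's own, the lower of 2; the other 112 were kept. Gene types and transcript lengths came from GENCODE release 29. The κB consensus was searched in RefSeq sequence, 1 stretch of 250 bases a gene. The members and lists were chosen with earlier results of these data known. Genes were named from a list when listed in both cell lines or, up to 8 per cell line, in 1; unlisted genes were also named where they complete a receptor or kinase complex. The 8 GO terms with the most background genes and 13 KEGG pathways were named by rule. Alternatives were other GO rows, the KEGG table, protein-coding genes as background, and terms without the listed NF-κB genes.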

Additional observations from a re-analysis of the deposited data

How the results depend on the processing

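The 10 NF-κB genes gave the same counts with only biological process terms, only terms with at most 500 background genes, or the KEGG tables. These were 2 listed for HepG2, 2 for Huh7 and 1 for both. All these settings draw on the authors' own calls, and the listed genes are widely annotated. Equal counts are therefore no check of the calls. The other pathway genes numbered 34 and 38 with the first 2 of these settings and 28 and 34 with the KEGG tables, where fewer genes have a pathway. With protein-coding genes of GENCODE release 29 as the background, the share of all genes listed was 23.9% in HepG2 and 21.9% in Huh7 cells, in place of 21.6% and 19.7%. Against these, 9 of the 13 GO terms named for NF-κB lay higher in HepG2 cells, in place of 10, and 9 in Huh7 cells. When the listed NF-κB genes were taken out of the GO terms and KEGG pathways, the 52 shares changed by -3.44 to 0.5 percentage points. The lowest of these was NF-kappaB binding in HepG2 cells, 7.14% with NFKBIA and 3.70% without it. No paired analysis was possible because each group has 1 library. The tables hold no reads, so what depth limits was not tested here, and leaving out a library was not possible with 1 per group.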

Other observations

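The terms around NFKBIA also hold genes of lipid handling, and the terms given here were chosen after their values had been seen. There were 20 nested terms with at most 500 background genes that name a lipid, a sterol or foam cells. Of these, 16 listed more genes in HepG2 cells, 2 more in Huh7 cells and 2 equal numbers. Every term of NFKBIA counts that gene for HepG2 but not for Huh7 cells. Part of any lean to HepG2 cells therefore follows from the choice of terms. Over all 349 terms of NFKBIA the median share was also higher in HepG2 cells, 23.5% against 21.3% in Huh7 cells. A lean to HepG2 cells is therefore not particular to lipid terms. Positive regulation of cholesterol transport held 7 of 19 genes (36.8%) in HepG2 and 2 (10.5%) in Huh7 cells. Negative regulation of macrophage derived foam cell differentiation held 7 and 3 of 13 genes, and negative regulation of lipid storage held 8 and 5 of 24 genes. Cholesterol efflux went the other way, with 10 of 63 genes (15.9%) in HepG2 and 14 (22.2%) in Huh7 cells, and lipid transport held 93 and 94 of 350 genes. Around RELB, myeloid dendritic cell differentiation held 10 of 21 genes (47.6%) in HepG2 and 6 (28.6%) in Huh7 cells, whereas the wider dendritic cell differentiation held 14 of 62 in each. Negative regulation of interferon-beta production held 1 and 2 of 14 genes, and circadian regulation of gene expression held 18 and 12 of 55 genes. Around NFKB2, response to lipopolysaccharide held 89 of 368 genes (24.2%) in HepG2 and 112 (30.4%) in Huh7 cells. None of these differences was tested.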
